A study of Homo sapiens with 36 samples.

Results

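The genes of the cytosolic ribosomal proteins were followed through a drug combination experiment in MDA-MB-231, a line of human breast cancer cells of the triple-negative kind. Members were taken by symbol alone: RPL or RPS, a number and at most one letter A, X or L, together with RPLP0, RPLP1, RPLP2 and RPSA, without the ubiquitin fusion gene RPS27A. The rule found 80 of the 54583 genes in the count tables, of which 31 belong to the small subunit and 49 to the large subunit. Polyadenylated RNA of cells cultured in RPMI-1640 and fetal bovine serum was sequenced in 36 libraries. The libraries form 3 sets, each with a count table of its own and 4 groups of 3 libraries. In the MG132 set the groups were SHP1705 (10 µM) with MG132 (100 nM), MG132 alone, SHP1705 alone and DMSO, all for 8 h. In the carfilzomib sets the groups were SHP1705 (10 µM) with carfilzomib (10 nM), carfilzomib alone, SHP1705 alone and DMSO, for 8 h in one set and 24 h in the other. SHP1705 stabilizes the cryptochromes, the repressors of the circadian clock, and MG132 and carfilzomib inhibit the proteasome. The controls received the DMSO in which the drugs were dissolved. Whether the independent experiments that the study describes are the replicates or the sets is not stated. P-values therefore cover the spread among the libraries deposited, part or all of which may be technical. The inhibitors were used at different doses, so their values are set side by side and not compared.

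Each ribosome is built from a small subunit, which decodes the mRNA, and a large subunit, which forms the peptide bonds, and most ribosomal proteins are present once in each ribosome. Their mRNAs are among the most abundant of a growing cell, and most of them begin with a C followed by a run of pyrimidines, the 5′ terminal oligopyrimidine (TOP) motif. Through this motif and the binding protein LARP1 the kinase mTOR controls how strongly the mRNAs are translated and how stable they are, and the transcription factor MYC raises their transcription. A few members are paralogues with narrower expression, among them RPL10L and RPL39L in testis, RPL3L in striated muscle and RPS27L, which p53 induces.

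The sequences around the transcription start are printed for 8 members on which the results turn, 7 with a pyrimidine run of at least 8 bases and RPS27L without one. RPL38, RPS21, RPL41, RPS23 and RPS27 had the lowest fold changes after SHP1705 alone in the MG132 set, RPS27L is the paralogue of RPS27, RPL39 had the highest called fold change under SHP1705 with MG132, and RPL13A the lowest called one under carfilzomib at 24 h. Each line gives the 10 bases before the annotated start and the 20 bases from it, 5′ to 3′ on the gene's strand, from RefSeq on GRCh38.p14. Capitals mark the longest run of C and T that touches the 5 bases on either side of the start.
RPS21: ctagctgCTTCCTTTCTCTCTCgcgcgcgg
RPL38: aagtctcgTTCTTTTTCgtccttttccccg
RPL41: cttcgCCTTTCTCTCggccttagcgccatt
RPS23: cggtgCTTCTCTCTTTCgctcaggcccgtg
RPS27: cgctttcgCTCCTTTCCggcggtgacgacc
RPS27L: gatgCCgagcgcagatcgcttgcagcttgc
RPL39: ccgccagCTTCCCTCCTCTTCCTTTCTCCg
RPL13A: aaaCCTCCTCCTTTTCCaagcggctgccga

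On the plus strand these windows lie at chr20:62387093-62387122 for RPS21, chr17:74203668-74203697 for RPL38 and chr12:56116623-56116652 for RPL41. RPS27 at chr1:153990752-153990781 and RPL13A at chr19:49487598-49487627 are on the plus strand too. RPS23 at chr5:82278335-82278364, RPS27L at chr15:63157458-63157487 and RPL39 at chrX:119791611-119791640 lie on the minus strand. Every window spans the start of the first exon, with upstream sequence before it. The run was 22 bases in RPL39, 15 in RPS21, 14 in RPL13A, 12 in RPS23, 10 in RPL41, 9 in both RPL38 and RPS27, and 2 in RPS27L. A start window was found for 63 of the 80 members. Of these, 47 (74.6%) held a run of at least 8 bases, with a median of 11 and a longest run of 25 in RPL7A. Over all 27305 genes of the same table, 3381 (12.4%) held such a run and the median was 4. Translation factors with known TOP mRNAs that the rule does not take held it in 10 of 13 cases (76.9%, median 9). The run is a description of these letters and not a measured start site.

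Sequencing gave 34191153 to 39251609 counted reads per library in the MG132 set. It gave 17781035 to 27670810 for carfilzomib at 8 h and 18864725 to 34008423 for carfilzomib at 24 h. The markers VIM, CD44, EGFR, CAV1 and AXL of the line had at least 157 CPM (counts relative to library size after TMM adjustment) in all 36 libraries. Of the genes listed as low in it, ESR1 did not pass 0.444 CPM, PGR 0.268 and CDH1 2.1, but EPCAM ran between 5.99 and 26.3 CPM and ERBB2 between 37.6 and 95. CDKN2A, which is deleted in this line, had 3.08, 6.85 and 7.58 CPM in the MG132 set under SHP1705 with MG132. There it had 0.578, 0.107 and 5.04 CPM under MG132, 0.0971, 0.761 and 0.751 under SHP1705, and at most 0.0276 in DMSO. In the carfilzomib sets it reached 2.48 CPM at 8 h and 0.441 at 24 h. PER3, a clock gene that cryptochromes repress, followed the labels in the MG132 set, with 3.68 to 4.99 CPM under SHP1705 with MG132 and 4.46 to 5.07 under SHP1705 alone, against 14.2 to 14.5 under MG132 and 13.8 to 14.7 in DMSO. It also did so at 24 h, with 0.619 to 1.43 CPM in the 6 libraries with SHP1705 and 18.9 to 25.3 in the other 6. In the carfilzomib set at 8 h PER3 and the heat shock gene HSPA1A went against the labels in several libraries. The library labelled SHP1705 replicate 1 held 19856 CPM of HSPA1A, against 705 and 693 in its own group, and the 3 libraries labelled DMSO held 14559, 23605 and 23242. No direction is therefore drawn from the labels of that set. POSTN, a marker of other cells, had 98.3, 222 and 242 CPM in the MG132 set under SHP1705 with MG132, 33.6, 0.161 and 173 under MG132, 0.267, 28.2 and 29.4 under SHP1705, and at most 0.255 in DMSO. The part of POSTN-bearing libraries in the results of that set was not tested except where values without 4 of them are given. The summed CPM of the 11 genes of other cells was 18.6 to 284 in the MG132 set, 12.6 to 21.8 at 8 h and 19.8 to 27.1 at 24 h in the carfilzomib sets. The high sums were mostly POSTN, which made up 242 of the 284 CPM in combination replicate 3. In the MG132 set CDH2 reached 16.7 CPM, COL1A1 11.4 CPM, and the rest of the list stayed below COL1A1.

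Levels between genes were compared per kilobase of coding length, on the scale of CPM per kb. In the DMSO libraries of the MG132 set RPS18 led with 14135 ± 700 (SD, n = 3), and it ranked first in the DMSO libraries of all 3 sets. RPL41, whose protein is the shortest of the ribosome, followed with 5979 ± 497, RPS9 with 5112 ± 151 and RPL13A with 3787 ± 259. RPLP0, the base of the ribosomal stalk, had 2150 ± 1.5. The median member stood at 1053 CPM per kb in the MG132 set, 1356 in the carfilzomib set at 8 h and 1257 in that at 24 h. The paralogues lay far below their partners: RPL39L had 77.5 ± 5.2 against 1352 ± 101 for RPL39, and RPS27L had 159 ± 14.3 against 787 ± 55.1 for RPS27. RPL10L had 0 or 1 count and RPL3L at most 12 counts in any library, and both failed the filter on low counts in every set. RPL36A had 6 to 42 counts in the MG132 set and failed it in the carfilzomib sets, so 78 members were tested in the MG132 set and 77 in each carfilzomib set.

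Ribosomal protein genes have many near-identical pseudogenes, between which the authors' counting could split reads. Counts in pseudogenes named after RPL9, RPL17, RPL36A and RPS10 exceeded those of the gene itself in all 3 sets. The ratio reached 21748% for RPL36A, 6510% for RPS10 and 6186% for RPL17 in a carfilzomib set, and 407% for RPL9 in the MG132 set, so levels of these 4 members are uncertain. RPL17 had 10607 counts summed over the MG132 set but 428 and 445 over the carfilzomib sets at 8 h and 24 h. RPL17, RPL36A and RPS10 each also overlap a read-through gene, which joins the gene to a neighbour and is counted separately. Those read-through genes held 103, 23 and 16 counts in the MG132 set and 0 in both carfilzomib sets. The part of pseudogenes or read-through genes in the low counts was not tested. Between 13 and 14 members per set had pseudogene counts above 10% of their own. Adding these counts to the parent gene left 62 members lower after SHP1705 alone in the MG132 set, where 61 were lower without them.

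As a share of all counts, the members together took 4.88% ± 0.247 under SHP1705 with MG132, 5.24% ± 0.105 under MG132, 5.03% ± 0.0719 under SHP1705 and 5.56% ± 0.151 in DMSO (SD, n = 3 each). Single libraries held 5.03%, 5.01% and 4.59% under the combination, 5.13%, 5.34% and 5.26% under MG132, 4.97%, 5.01% and 5.11% under SHP1705, and 5.48%, 5.73% and 5.47% in DMSO. Every treated library lay below every DMSO library. Under the combination a list of 8 heat shock genes took 10.8% ± 0.109 of all counts, against 0.966% under MG132, 0.909% under SHP1705 and 0.928% in DMSO. With those genes left out of the totals the members took 5.47% ± 0.275 under the combination, 5.29% ± 0.106 under MG132, 5.08% ± 0.0717 under SHP1705 and 5.61% ± 0.152 in DMSO. The deficit of the combination against MG132 was thus not seen once the heat shock genes were left out, and SHP1705 alone was then the lowest group. The balance between the subunits differed from DMSO by less than the spread between replicates: small subunit counts per large subunit count were 0.895 ± 0.0232 under the combination, 0.874 under MG132, 0.877 under SHP1705 and 0.883 in DMSO.

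At 24 h the members took 5.95% ± 0.0979 under SHP1705 with carfilzomib, 6.01% ± 0.131 under carfilzomib, 6.34% ± 0.103 under SHP1705 and 6.43% ± 0.105 in DMSO (SD, n = 3 each). The libraries held 5.90%, 5.89% and 6.06% under the combination, 5.91%, 5.95% and 6.16% under carfilzomib, 6.31%, 6.25% and 6.45% under SHP1705, and 6.55%, 6.4% and 6.35% in DMSO. The 6 libraries with carfilzomib lay below the 6 without it, and SHP1705 alone overlapped DMSO. In the carfilzomib set at 8 h the libraries of a group spread far more, with 7.38%, 5.89% and 5.86% under the label of the combination, 7.41%, 6.78% and 6.36% under carfilzomib, 5.20%, 5.98% and 7.11% under SHP1705, and 5.72%, 6.41% and 5.99% under DMSO. Every pair of groups of that set overlapped. Over the 36 libraries the ratio of small to large subunit counts ran between 0.836 and 0.914. At 24 h it was 0.870 ± 0.00351 under the combination, 0.873 ± 0.0134 under carfilzomib, 0.867 ± 0.0136 under SHP1705 and 0.855 ± 0.00807 in DMSO. The combination libraries, at 0.870, 0.867 and 0.874, lay above the DMSO libraries, at 0.846, 0.862 and 0.856, while carfilzomib and SHP1705 alone each overlapped DMSO.

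**Figure D1:**
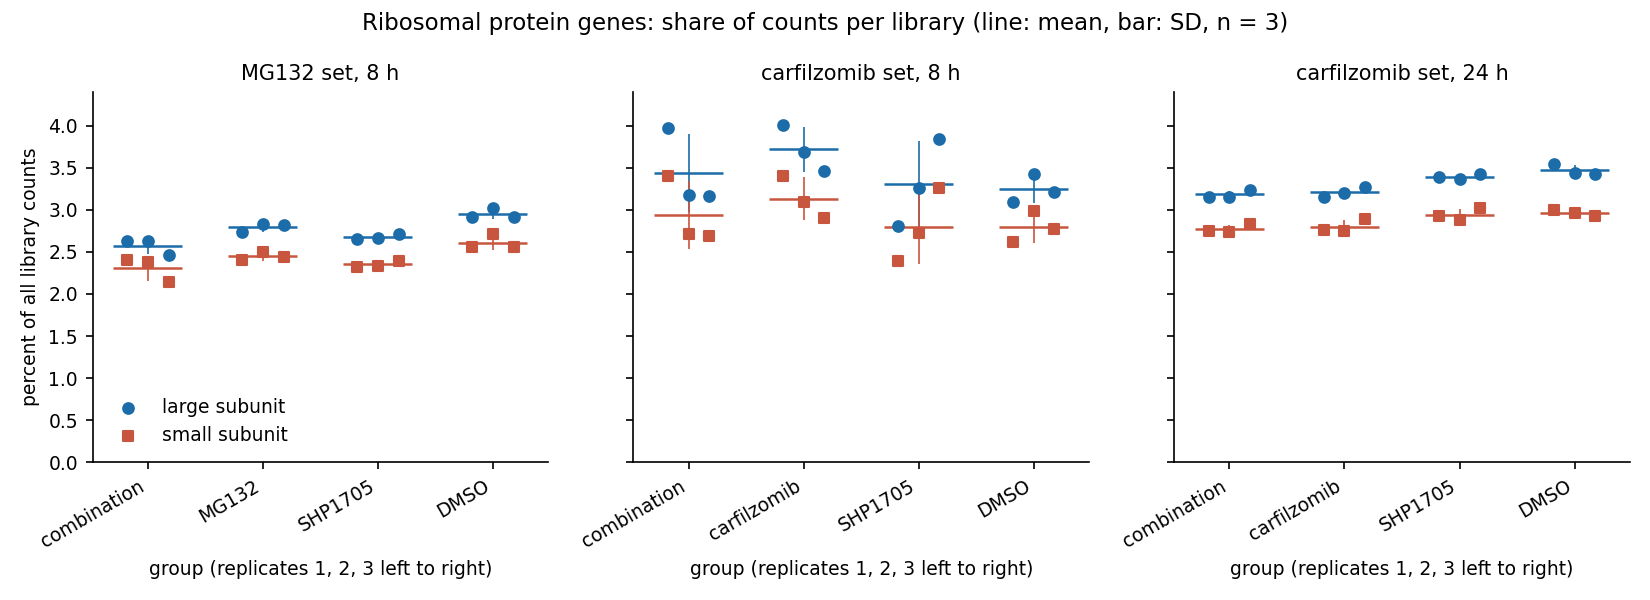
Share of all counts (percent, axis from 0) taken by large subunit genes (blue circles) and small subunit genes (red squares) in each library, with the 3 sets in panels and the treated groups left of DMSO. Lines are group means and bars are SDs over 3 libraries; in the MG132 set the DMSO libraries have the highest mean for both subunits (2.95% and 2.61%), and at 24 h the carfilzomib groups are lowest.

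After SHP1705 alone in the MG132 set, 61 of the 78 tested members fell and 0 rose. Of all 16591 tested genes 7.53% were called, 4.08% lower and 3.45% higher. A call here is an adjusted p under 0.05 from edgeR's quasi-likelihood test on the counts with TMM scaling, with Benjamini-Hochberg adjustment over all genes of a contrast, and errors after log2 fold changes are standard errors. A fold change is read against the rest of its library, and more or less RNA in each cell would not show in it. In bulk RNA, fewer cells of a kind and less RNA per cell cannot be told apart. The median log2 fold change of the members was -0.19, that of all genes was near 0, and 77 of the 78 had a negative value. The small subunit had 23 of 31 members lower with a median of -0.19 and the large subunit 38 of 47 with a median of -0.16. In 69 members every SHP1705 library lay below every DMSO library, and none had the reverse; over all tested genes 13.1% lay apart lower and 12.8% higher.

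The lowest called values belonged to members with coding lengths of 75 nt (RPL41), 210 nt (RPL38), 249 nt (RPS21), 252 nt (RPS27) and 429 nt (RPS23). RPL38, which in mouse is needed for the translation of Hox mRNAs, had 92.5, 98.1 and 109 CPM under SHP1705, against 115, 141 and 136 CPM in DMSO, a log2 fold change of -0.39 ± 0.07 (adjusted p = 0.00361). RPS21, a small subunit protein, had 131, 136 and 151 CPM under SHP1705, against 162, 200 and 180 CPM in DMSO, a change of -0.38 ± 0.08 (adjusted p = 0.00641). In both genes the groups did not overlap. RPL41 had 330, 334 and 400 CPM under SHP1705, against 415, 489 and 441 CPM in DMSO, a change of -0.34 ± 0.07 (adjusted p = 0.00725). RPS23, which reaches into the decoding centre, had 550, 521 and 590 CPM under SHP1705, against 669, 778 and 640 CPM in DMSO, a change of -0.33 ± 0.07 (adjusted p = 0.00947). RPS27, which carries a zinc finger, had 156, 145 and 175 CPM under SHP1705, against 188, 214 and 193 CPM in DMSO, a change of -0.32 ± 0.07 (adjusted p = 0.00884). In these 3 genes all SHP1705 libraries again lay below all DMSO libraries, but the call rested on single libraries. Without DMSO replicate 2 the changes were -0.27 for RPL41 (adjusted p = 0.0515), -0.24 for RPS23 (0.0663) and -0.26 for RPS27 (0.061), and without SHP1705 replicate 2 they were -0.29 for RPS23 (0.0582) and -0.26 for RPS27 (0.0588).

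Other members of the naming rule follow with their known roles. RPS19, the gene most often mutated in Diamond-Blackfan anaemia, had 384, 392 and 405 CPM under SHP1705, against 453, 478 and 474 CPM in DMSO, a change of -0.25 ± 0.04 (adjusted p = 0.000916). RPSA, which is also the precursor of a laminin receptor, had 772, 728 and 748 CPM under SHP1705, against 850, 847 and 825 CPM in DMSO, a change of -0.17 ± 0.03 (adjusted p = 0.000806). Their groups lay well apart in every library. RPL5, which with RPL11 can bind MDM2 and so stabilize p53, had 803, 745 and 772 CPM under SHP1705, against 841, 863 and 827 CPM in DMSO, a change of -0.13 ± 0.03 (adjusted p = 0.00973). Without SHP1705 replicate 2 it was -0.10 (adjusted p = 0.057) and without DMSO replicate 2 it was -0.11 (0.0613). Of the stalk proteins that recruit elongation factors, RPLP0 had 1905, 1904 and 1882 CPM under SHP1705, against 2044, 2044 and 2046 CPM in DMSO, a change of -0.11 ± 0.02 (adjusted p = 0.0111). RPLP2 changed by -0.22 ± 0.05 (adjusted p = 0.00764) and RPS28 by -0.28 ± 0.05 (adjusted p = 0.0021). RPS3, RPS6, the substrate of S6 kinase, and RPL3, near the peptidyl transferase centre, did not pass the threshold, at -0.10 ± 0.03 (adjusted p = 0.0912), -0.10 ± 0.03 (0.0525) and -0.06 ± 0.03 (0.267). RPS6 passed without SHP1705 replicate 3, at -0.13 (0.0286), with no filter on low counts (0.0131), with DESeq2 (0.0306) and in a fit of the compared groups (0.029). RPS3 passed with no filter (0.0194) and in a fit of the compared groups (0.0266).

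The size of the change followed coding length among the members. Those of up to 300 nt had a median log2 fold change of -0.30 (11 members, 9 of them lower), those above 300 and up to 600 nt -0.20 (45, of which 37 lower), those above 600 and up to 1200 nt -0.12 (20, of which 15 lower) and the 2 longer ones -0.06 with none lower. Genes other than the members showed a trend of the same sign, with medians of -0.12, -0.06, -0.02 and 0.01 in the same bins and 0.06 above 2400 nt. Across the 78 members Spearman's rho between log2 fold change and coding length was 0.687 and Pearson's r 0.251, and across 12994 other genes rho was 0.264; genes of one set of libraries are not independent replicates. RPL39, at 153 nt, changed by -0.22 ± 0.06 (adjusted p = 0.0237), which was lost without SHP1705 replicate 2 (-0.16, 0.128) and without DMSO replicate 2 (-0.16, 0.142) or 3 (-0.22, 0.0648). With the length trend of the other genes removed from each library, 39 members were still lower and their median was -0.12, but RPL39, RPL41, RPLP2 and RPS28 no longer passed, at -0.04, -0.12, -0.13 and -0.13. Without the 4 libraries outside the combination that held POSTN (SHP1705 replicates 2 and 3, MG132 replicates 1 and 3), 17 members were lower with a median of -0.21, and 150 genes were called in all. Of the members named above as called, RPL39 (-0.17), RPS21, RPS23, RPS27, RPSA, RPL5, RPLP0 and RPLP2 then lost the call, RPS21 at -0.47, and this fit has 1 SHP1705 library, which is assumed to vary like the other groups. The part of length or POSTN in the result was not tested beyond these values.

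**Figure D2:**
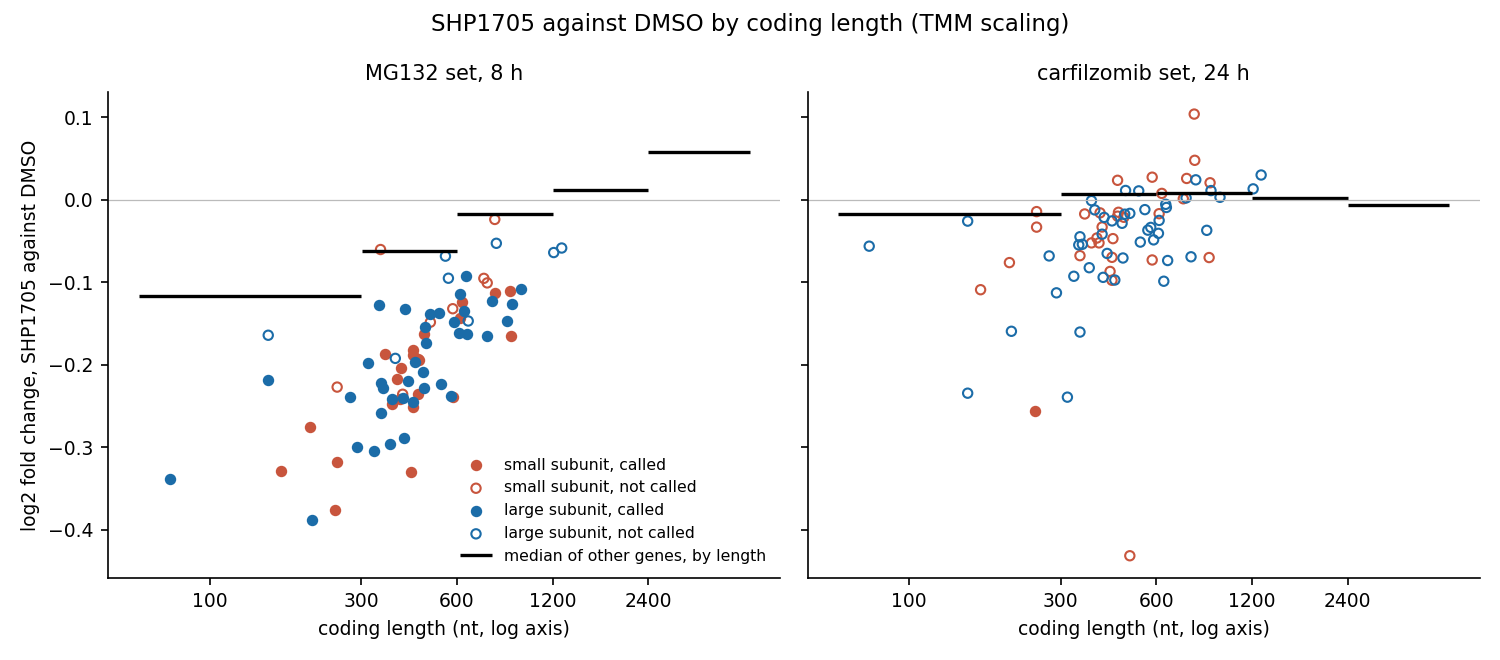
Log2 fold change of SHP1705 against DMSO (y axis) by coding length in nt (x axis, log scale) for the members in the MG132 set at 8 h and the carfilzomib set at 24 h, with black bars at the medians of other genes. In the MG132 set the shortest members lie lowest, with medians of -0.30 up to 300 nt and -0.12 above 600 and up to 1200 nt; RPL36A was tested in that set and is not drawn.

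Lists of related genes were counted the same way. Of 19 translation genes with TOP mRNAs outside the rule, 5 fell and 1 rose, with a median of -0.07. FAU, which encodes RPS30 fused to a ubiquitin-like protein, changed by -0.21 ± 0.04 (adjusted p = 0.00214), RPS27A, a ubiquitin fusion, by -0.21 ± 0.04 (0.00444) and EEF1B2, a subunit of the elongation factor that reloads eEF1A, by -0.18 ± 0.03 (0.00356). Without the 4 POSTN-bearing libraries the calls of RPS27A (adjusted p = 0.0659), EEF1B2 (0.214) and MYC (0.319) were lost. Mitochondrial ribosomal proteins fell in 9 of 77 cases, nuclear genes of oxidative phosphorylation in 30 of 76 with a median of -0.15, and ribosome assembly factors in 8 of 28. DDIT4, an inhibitor of mTOR, rose by 0.44 ± 0.05 (adjusted p = 3.94e-05). MYC fell by 0.16 on the log2 scale with an SE of 0.04 (adjusted p = 0.0143), a call lost without SHP1705 replicate 2 (0.0594) or 3 (0.0544) and without DMSO replicate 2 (0.0520) or 3 (0.0842). Lists are described by these counts and were not tested as sets.

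MG132 alone at 100 nM called 0 members and 0% of all genes by edgeR, with 41 members and 1574 genes at an unadjusted p under 0.05. The members' median log2 fold change was -0.09, and 76 of 78 were negative. In 42 members every MG132 library lay below every DMSO library, as in 8.28% of all tested genes. RPS19 had 410, 428 and 413 CPM under MG132, against 453, 478 and 474 CPM in DMSO, which did not overlap, with a change of -0.17 ± 0.04 (adjusted p = 0.186). RPLP0 had 1835, 1944 and 1921 CPM under MG132, against 2044, 2044 and 2046 CPM in DMSO, a change of -0.11 ± 0.02 (adjusted p = 0.182). The other readings of this contrast differed in the count: DESeq2 called 11 members lower where it called 0.319% of all genes lower, and edgeR with no filter on low counts called 28 lower with 0.349% of all genes. RPS19 and RPLP0 were called in both of these readings.

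The direction of the members under SHP1705 with MG132 depended on the scaling. Against DMSO, 43 of 78 rose and 2 fell by TMM scaling, with a median of 0.12, and with library size alone 0 rose and 68 fell, with a median of -0.18. By TMM, 29.2% of all genes rose and 29.7% fell. With library size alone 52.7% of all genes fell and the median of all genes moved to -0.31. A change of scaling shifts all genes of a library by nearly the same amount. The members' place above the median gene could therefore not change with it. The heat shock list, of which 8 of 8 genes rose, took 10.8% of these libraries, as given above. Against MG132, 65 members rose and 2 fell by TMM (28.2% of all genes rose and 28.9% fell), with a median of 0.21, and with library size alone 0 rose and 41 fell, with a median of -0.11 where the median of all genes was -0.32. By TMM, every combination library lay above every DMSO library in 31 members (31.5% of all tested genes) and above every MG132 library in 59 (30% of all tested genes). The subunits did not part: 17 of 31 small subunit members and 26 of 47 large ones rose against DMSO by TMM, with medians of 0.13 and 0.12, and both medians share the change of sign with library size alone.

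**Figure D3:**
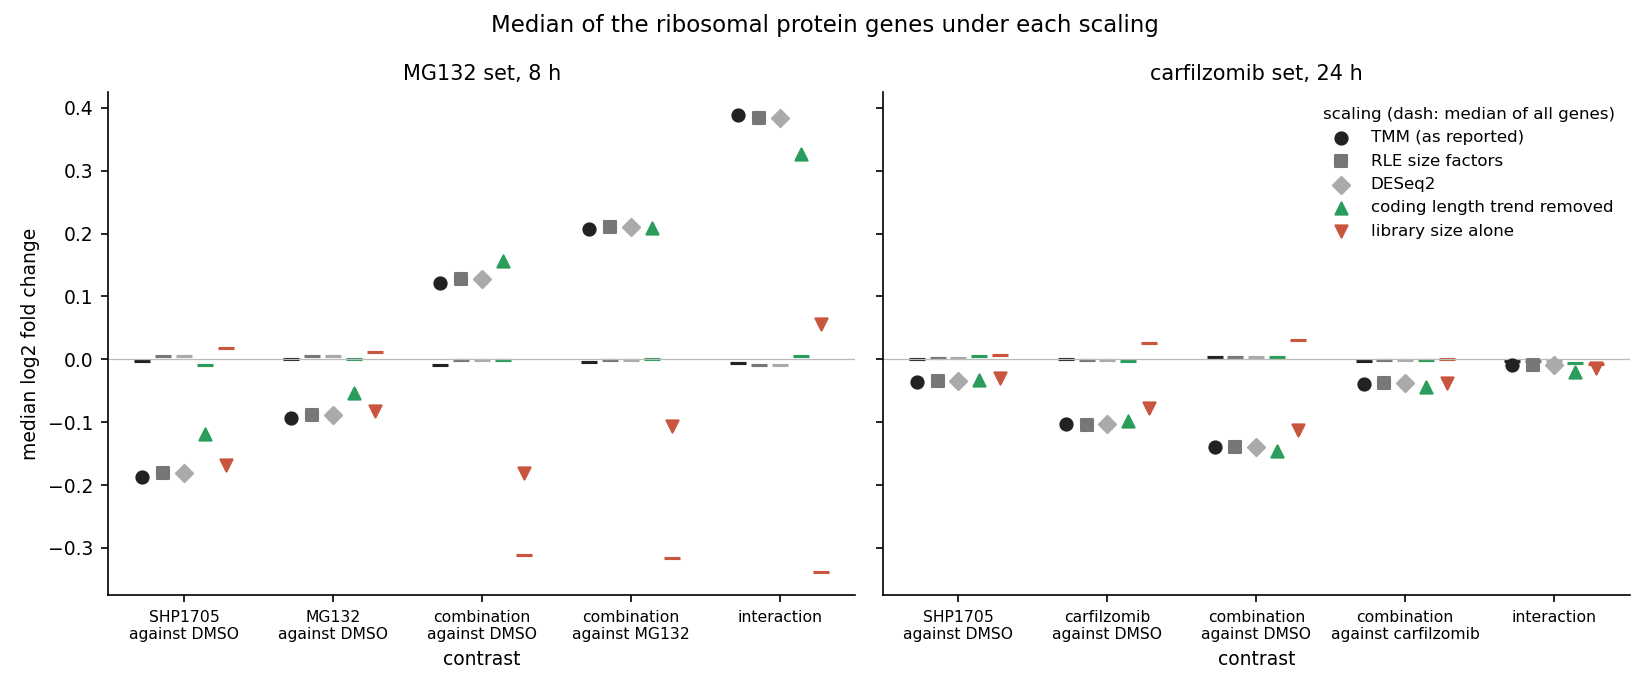
Median log2 fold change of the members under 5 scalings or corrections, by contrast, with a dash at the median of all tested genes under the same scaling. In the MG132 set the members' median for the combination against DMSO is 0.12 by TMM and -0.18 by library size alone. It lies above the dash in both, where the change of scaling moves members and dash alike.

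The values by library below are TMM-scaled CPM, and the fold changes of RPL37, RPL4, RPL30, RPL9, RPS19, RPL5 and RPL11 against DMSO turn negative with library size alone, between -0.06 and -0.12. RPL39, a short protein at the exit tunnel of the large subunit, had 275, 260 and 236 CPM under the combination, 186, 200 and 200 under MG132, 184, 164 and 185 under SHP1705, and 192, 223 and 206 in DMSO. All combination libraries were above all others, with changes of 0.31 ± 0.06 against DMSO (adjusted p = 8.83e-05) and 0.40 ± 0.06 against MG132 (5.76e-06); with library size alone these were 0.01 and 0.08. RPL37 had 362, 350 and 316 CPM under the combination, against 271, 304 and 295 CPM in DMSO, a change of 0.24 ± 0.06 (adjusted p = 0.00174). RPL4, which also lines the exit tunnel, had 972, 1016 and 1022 CPM under the combination, against 870, 843 and 865 CPM in DMSO, a change of 0.22 ± 0.02 (adjusted p = 1.39e-07). The combination libraries of both stood above all DMSO libraries. RPL30 had 471, 463 and 411 CPM under the combination, against 373, 397 and 384 CPM in DMSO, a change of 0.22 ± 0.05 (adjusted p = 0.000697). RPL9, whose reads are shared with pseudogenes, changed by 0.24 ± 0.04 (adjusted p = 2.07e-05).

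The MDM2-binding members rose together by TMM, against the sign with library size alone given above. RPL5 had 993, 992 and 962 CPM under the combination, 791, 821 and 801 under MG132, and 841, 863 and 827 in DMSO. Its change was 0.22 ± 0.03 against DMSO (adjusted p = 1.44e-06) and 0.29 ± 0.03 against MG132 (3.39e-08), the second being -0.03 with library size alone. RPL11 had 667, 674 and 623 CPM under the combination, 514, 579 and 535 under MG132, and 544, 603 and 578 in DMSO. Its change was 0.19 ± 0.06 against DMSO (adjusted p = 0.0067), which without DMSO replicate 1 was 0.14 (0.0575), and 0.27 ± 0.06 against MG132 (0.000313), which was -0.04 with library size alone. RPLP0, by contrast, had 2074, 2186 and 2082 CPM under the combination, against 2044, 2044 and 2046 CPM in DMSO, a change of 0.05 ± 0.02 that did not pass (adjusted p = 0.103). It passed with the length trend removed, at 0.07 (0.0147), and was -0.25 with library size alone.

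The interaction asks whether SHP1705 acted differently with MG132 than without it, as the log2 fold change of the combination over MG132 minus that of SHP1705 over DMSO. It called 72 of 78 members, 71 higher and 1 lower, with a median of 0.39, where 24.7% of all genes were called higher. With library size alone it called 14 higher and 6 lower with a median of 0.06. That scaling moves members and other genes nearly alike, as described above, so this median is not read against 0. The count under it is given without the share of all genes and is not read as a result about the members. RPS21 had 238, 217 and 182 CPM under the combination, 162, 170 and 156 under MG132, 131, 136 and 151 under SHP1705, and 162, 200 and 180 in DMSO. By TMM, SHP1705 libraries lay below all DMSO libraries without MG132 and above all MG132 libraries with it, an interaction of 0.76 ± 0.11 (adjusted p = 1.1e-05). RPS23 had 859, 791 and 668 CPM under the combination, 646, 635 and 584 under MG132, 550, 521 and 590 under SHP1705, and 669, 778 and 640 in DMSO, an interaction of 0.64 ± 0.10 (adjusted p = 3.51e-05). For RPL39 it was 0.62 ± 0.08 (adjusted p = 2.81e-06), for RPS19 0.61 ± 0.06 (2.58e-08) and for RPL30 0.59 ± 0.07 (8.29e-07). The rise over MG132 in these genes depended on the scaling. With library size alone it was 0.07 for RPS21, 0.0005 for RPS23, 0.08 for RPL39, 0.05 for RPS19 and 0.01 for RPL30. None of these values passed.

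Among other genes of translation under the combination, values are by TMM, and the shift of the median gene by -0.31 with library size alone applies to them too. Of the 19 TOP translation genes outside the rule 16 rose against DMSO and none fell, with a median of 0.25. TPT1, the translationally controlled tumour protein, changed by 0.53 ± 0.03, EIF3E, an initiation factor subunit, by 0.53 ± 0.03 and NAP1L1, a histone chaperone with a TOP mRNA, by 0.41 ± 0.02. Mitochondrial ribosomal proteins split into 21 higher and 24 lower of 77, genes of oxidative phosphorylation into 15 higher and 18 lower of 76, and assembly factors into 13 higher and 6 lower of 28. Of 9 regulators of MYC and mTOR signalling 8 rose, among them SESN2, an inhibitor of mTOR, by 2.75 ± 0.06 and MYC by 0.73 ± 0.04. POSTN was high in every combination library and the combination and POSTN cannot be told apart there. Leaving out the 4 other libraries that held it keeps every combination library and leaves MG132 replicate 2 alone in its group. That fit therefore cannot separate them either.

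**Figure D4:**
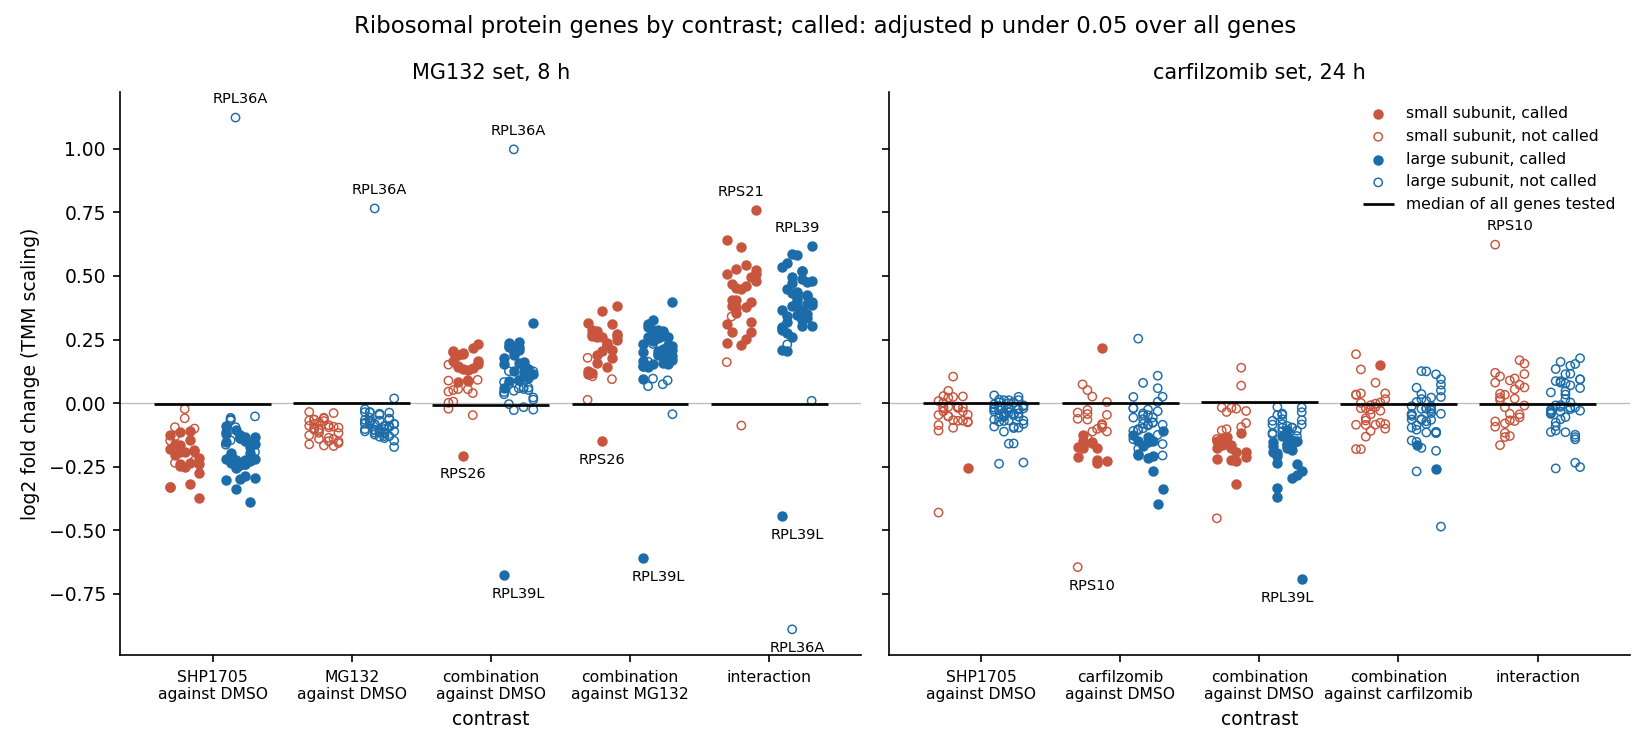
Log2 fold change (TMM scaling) of every tested member in 5 contrasts of the MG132 set at 8 h and the carfilzomib set at 24 h, filled where called and open where not, with black lines at the median of all genes. In the MG132 set members lie below the line for SHP1705 alone (61 lower) and above it for the combination (43 higher, which turn to 68 lower with library size alone); at 24 h most lie below it under carfilzomib and the combination.

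RPL39L and RPS26 were the 2 members that fell under the combination by TMM, and both were lower with library size alone too. RPL39L, the testis-enriched paralogue on chromosome 3, has a coding length of 153 nt, the same as RPL39 on chromosome X. It had 7.31, 7.72 and 7.22 CPM under the combination, 11.7, 10.2 and 12 under MG132, 10.8, 11 and 9.89 under SHP1705, and 11.1, 12.7 and 11.8 in DMSO. The combination libraries lay apart below all others, with changes of -0.68 ± 0.09 against DMSO (adjusted p = 1.26e-06) and -0.61 ± 0.09 against MG132 (4.85e-06). Its interaction was -0.45 ± 0.12 (adjusted p = 0.00392). Without the 4 libraries outside the combination that held POSTN it was -0.33 and no longer called. That fit keeps the combination libraries, which held POSTN too. RPS26, which lines the mRNA exit channel, had 152, 156 and 140 CPM under the combination, 160, 176 and 160 under MG132, 158, 169 and 169 under SHP1705, and 169, 175 and 173 in DMSO. It changed by -0.21 ± 0.04 against DMSO (adjusted p = 0.000395) and by -0.15 ± 0.04 against MG132 (0.00635), with an interaction of -0.09 ± 0.06 that did not pass (0.249). That interaction passed with library size alone, at -0.42 (adjusted p = 5.33e-06), and with the length trend removed, at -0.19 (0.0052). RPS26 has pseudogene counts of 20% to 51% of its own, as do RPL21, RPSA, RPL41 and RPS28.

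The other pair of paralogues, RPS27 on chromosome 1 and RPS27L on chromosome 15, stayed closer together. RPS27 had 227, 221 and 185 CPM under the combination, against 188, 214 and 193 CPM in DMSO, which overlap, with a change of 0.09 ± 0.07 (adjusted p = 0.286). Without combination replicate 3 it was 0.17 (adjusted p = 0.0282), with the length trend removed 0.14 (0.0349), and with library size alone -0.21. RPS27L had 40.2, 41.5 and 34.5 CPM under the combination, 34.1, 37.3 and 37.3 under MG132, 33.3, 32.6 and 36.6 under SHP1705, and 40.9, 43 and 36 in DMSO. Its groups overlapped, with -0.05 ± 0.07 for the combination (adjusted p = 0.591) and -0.23 ± 0.07 for SHP1705 alone (0.0571). With library size alone the combination value was -0.35 and passed (adjusted p = 0.00025). The value for SHP1705 alone passed with DESeq2, at -0.22 (0.0277), without SHP1705 replicate 3, at -0.28 (0.0395), or DMSO replicate 3, at -0.30 (0.0236). It also passed with no filter on low counts (0.00133) and in a fit of the compared groups (0.0288).

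**Figure D5:**
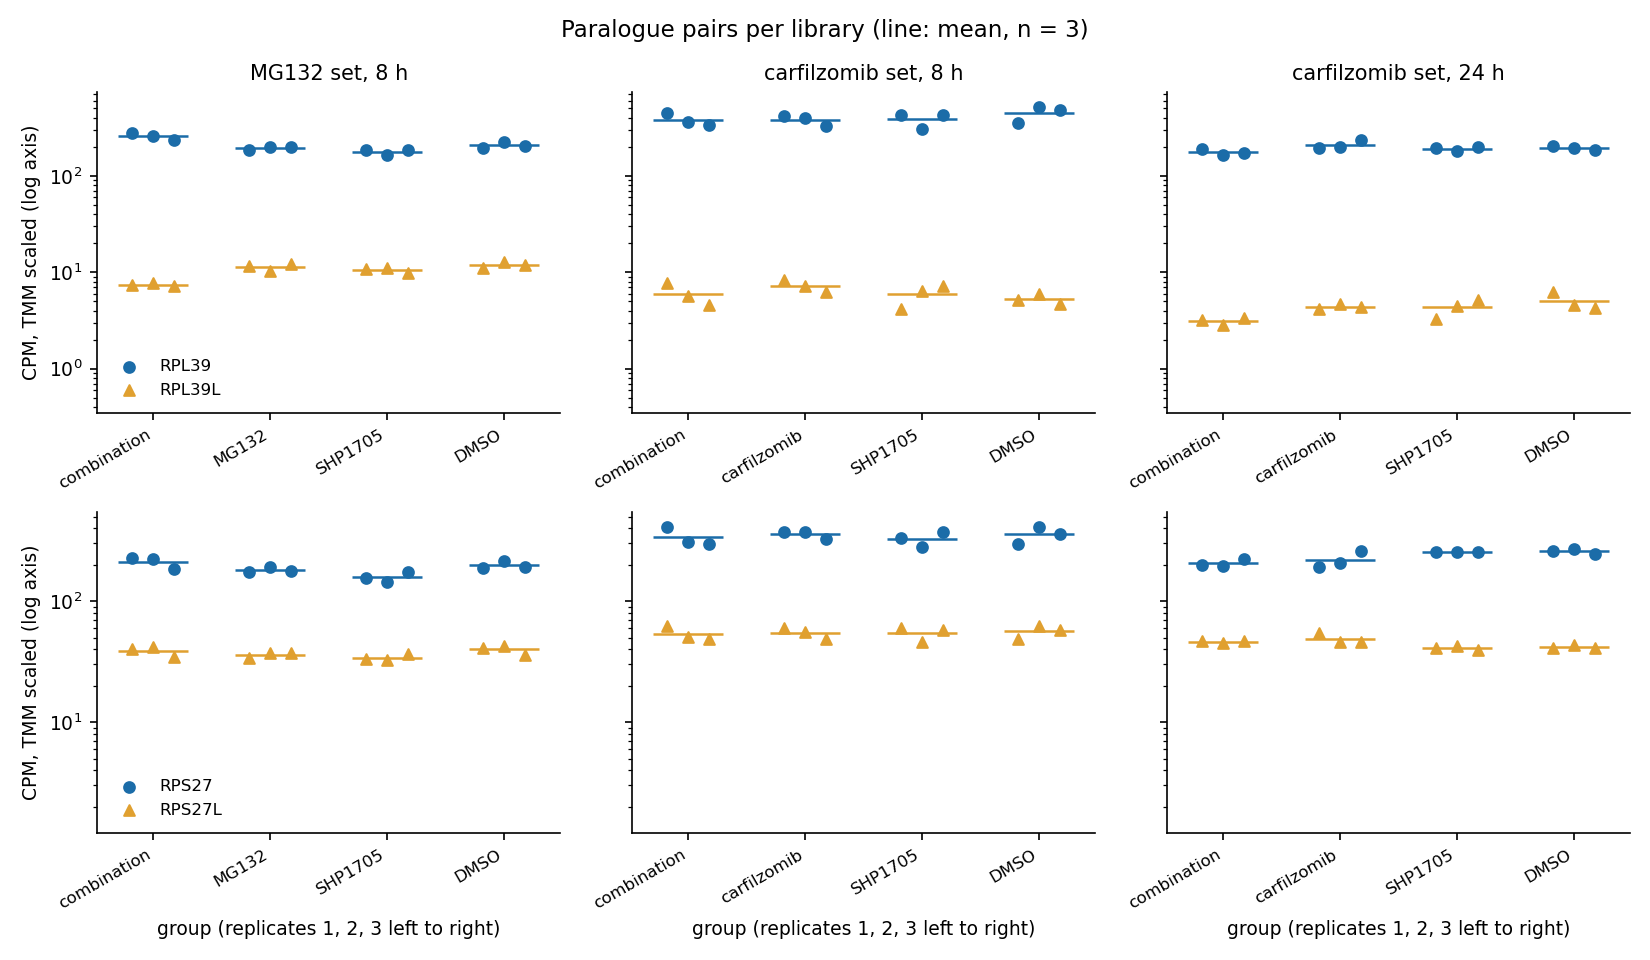
TMM-scaled CPM (log axis) of RPL39 and RPL39L (top) and RPS27 and RPS27L (bottom) in each library of the 3 sets, treated groups left of DMSO. In the MG132 set RPL39 is highest and RPL39L lowest under SHP1705 with MG132 (236 to 275 against 7.22 to 7.72 CPM; with library size alone the change of RPL39 against DMSO is 0.01).

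At 24 h SHP1705 alone left the members close to DMSO. It called 1 of 77 lower and 0 higher, where 2.51% of all genes were lower and 1.95% higher, with a median of -0.04 and 61 negative values. That member was RPS21, with 417, 378 and 388 CPM under SHP1705, against 508, 484 and 421 CPM in DMSO. The groups did not overlap, and the change was -0.26 ± 0.07 (adjusted p = 0.0468), lost without SHP1705 replicate 2 (-0.23) or 3 (-0.24), without DMSO replicate 1 (-0.20) or 2 (-0.24), and with DESeq2 or library size alone. RPL36 had 324, 293 and 311 CPM under SHP1705, against 377, 392 and 326 CPM in DMSO, a change of -0.24 ± 0.07 (adjusted p = 0.0565). It passed with DESeq2 (0.0223) and in edgeR with no filter on low counts (0.000213), the replicate block (0.0472) or the compared groups alone (0.00854). Without DMSO replicate 3 it passed at -0.31 (0.0196), and with other size factors or library size alone it did not pass. Among members the change again followed coding length with a rho of 0.556 (n = 77), while rho was -0.021 across the other genes. DDIT4 rose by 0.43 ± 0.05 (adjusted p = 1.07e-05), and 9 of 28 assembly factors fell.

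Carfilzomib alone at 24 h lowered 26 of 77 members and raised 1, where 11.4% of all genes fell and 10.1% rose, with a median of -0.10. Of these 26, 12 belong to the small subunit and 14 to the large. Without carfilzomib replicate 3 the contrast called 40 lower and 1 higher, without DMSO replicate 1 it called 14 lower, and a fit of these groups alone called 15. RPL13A, which also acts in a complex that silences inflammatory mRNAs, had 2414, 2658 and 2209 CPM under carfilzomib, against 3575, 2846 and 3162 CPM in DMSO, a change of -0.40 ± 0.06 (adjusted p = 8.4e-05). RPL28 had 836, 913 and 885 CPM under carfilzomib, against 1146, 1108 and 1081 CPM in DMSO, a change of -0.34 ± 0.04 (adjusted p = 1.4e-06). RPL13, a member mutated in a skeletal dysplasia, had 773, 768 and 773 CPM under carfilzomib, against 950, 940 and 896 CPM in DMSO, a change of -0.27 ± 0.04 (adjusted p = 2.94e-05). In all 3 the carfilzomib libraries lay below every DMSO library. RPS28 changed by -0.23 ± 0.05 (adjusted p = 0.00293), RPS14, whose loss underlies a form of myelodysplastic syndrome, by -0.22 ± 0.05 (0.00101), RPL41 by -0.21 ± 0.05 (0.00376) and RPL3 by -0.20 ± 0.04 (0.00196). RPS3 changed by -0.18 ± 0.04 (adjusted p = 0.00135), RPS19 by -0.16 ± 0.04 (0.00552) and RPLP0 by -0.15 ± 0.04 (0.00481).

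RPS27L, the paralogue induced by p53, was the 1 member called higher, among 12 with positive values. It had 54.8, 45.5 and 46.1 CPM under carfilzomib, against 41.3, 43.6 and 40.7 CPM in DMSO, without overlap and with a change of 0.22 ± 0.07 (adjusted p = 0.0305). The first carfilzomib library carried much of this, and the call was lost without it, at a log2 change of 0.13, and without DMSO replicate 1 or 3, at 0.20 each. The run in its start window, printed above, is 2 bases long. RPL39 did not pass, at 0.11 ± 0.07 (adjusted p = 0.272). Outside the members, PABPC1, the poly(A) binding protein with a TOP mRNA, fell by 0.25 on the log2 scale with an SE of 0.04 (adjusted p = 2.28e-05), and EIF3E rose by 0.23 ± 0.05 (0.00205). Of the 19 TOP translation genes 4 rose and 3 fell. Mitochondrial ribosomal proteins rose in 15 and fell in 4 of 77 cases, genes of oxidative phosphorylation rose in 12 of 77, assembly factors rose in 8 and fell in 1 of 28, and MYC rose by 0.24 ± 0.06 (adjusted p = 0.00335).

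SHP1705 with carfilzomib at 24 h lowered 40 of 77 members and raised none, where 14.3% of all genes fell, with a median of -0.14. It lowered 17 of 31 small subunit and 23 of 46 large subunit members. In 50 members every combination library lay below every DMSO library, as in 22.4% of all tested genes, and in 2 above, as in 22% of all tested genes. Without combination replicate 2 the count was 26 and without DMSO replicate 1 it was 21; a fit of these groups alone called 57 lower and 1 higher. RPL41 had 589, 557 and 570 CPM under the combination, 603, 635 and 685 under carfilzomib, 712, 706 and 715 under SHP1705, and 772, 759 and 686 in DMSO, a change of -0.37 ± 0.05 against DMSO (adjusted p = 4.15e-06). RPL36 had 306, 273 and 291 CPM under the combination, against 377, 392 and 326 CPM in DMSO, a change of -0.33 ± 0.07 (adjusted p = 0.00108). RPS27 had 200, 196 and 224 CPM under the combination, against 260, 268 and 247 CPM in DMSO, a change of -0.32 ± 0.08 (adjusted p = 0.00243). All combination libraries of these 3 genes lay below all DMSO libraries.

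RPL13 changed by -0.30 ± 0.04 (adjusted p = 4.52e-06), RPL13A by -0.28 ± 0.06 (0.0017), RPL28 by -0.27 ± 0.04 (1.96e-05), RPLP0 by -0.24 ± 0.04 (2.96e-05), RPS26 by -0.22 ± 0.06 (0.00642) and RPS3 by -0.14 ± 0.04 (0.007). RPL39L had 3.17, 2.84 and 3.39 CPM under the combination, 4.19, 4.63 and 4.33 under carfilzomib, 3.23, 4.50 and 5.18 under SHP1705, and 6.29, 4.62 and 4.27 in DMSO. The combination libraries lay below DMSO and carfilzomib, with a change of -0.69 ± 0.20 against DMSO (adjusted p = 0.0105), which without DMSO replicate 1 was -0.51 (0.0984). RPS27L had 47.1, 44.8 and 46.5 CPM under the combination, above all 3 DMSO libraries, with a change of 0.14 ± 0.07 that did not pass (adjusted p = 0.158). In a fit of the compared groups RPS27L passed (0.0484). RPL39 had 188, 164 and 172 CPM under the combination, against 204, 196 and 184 CPM in DMSO, a change of -0.15 ± 0.07 (adjusted p = 0.0898). It passed without combination replicate 1, at -0.21 (0.0424), and with the length trend removed, at -0.17 (0.0295). The same held with no filter on low counts (0.0434) and in a fit of the compared groups (0.016). PABPC1 changed by -0.30 ± 0.04 (adjusted p = 1.03e-06) and EEF1D, an elongation factor subunit, by -0.26 ± 0.05 (0.000205), while MYC rose by 0.47 ± 0.06 (1.07e-06) and DDIT4 by 0.57 ± 0.05 (1.93e-08). Mitochondrial ribosomal proteins rose in 22 and fell in 3 of 77 cases, and the TOP translation genes outside the rule rose in 4 and fell in 4 of 19.

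Adding SHP1705 to carfilzomib changed few members at 24 h. It called 1 higher and 2 lower of 77, where 9.02% of all genes were called, 4.36% higher and 4.67% lower. RPS20, a small subunit protein, had 460, 467 and 480 CPM under the combination, against 417, 437 and 413 CPM under carfilzomib, without overlap, a change of 0.15 ± 0.04 (adjusted p = 0.022). RPL39 had 195, 198 and 235 CPM under carfilzomib, above all combination libraries given above, a change of -0.26 ± 0.07 (adjusted p = 0.0132). RPL41 changed by -0.16 ± 0.05 (adjusted p = 0.036) and RPL39L by -0.49 ± 0.20 (0.126). The calls rested on single libraries: RPS20 was lost without combination replicate 2 or 3 or carfilzomib replicate 1, at log2 changes of 0.15, 0.13 and 0.14. RPL39 was lost without combination replicate 2 (-0.22) or 3 (-0.25) or carfilzomib replicate 3 (-0.17), and RPL41 without combination replicate 1 (-0.19), 2 (-0.15) or 3 (-0.16) or carfilzomib replicate 3 (-0.11). The count was 0 without combination replicate 2 or 3, 1 without carfilzomib replicate 3, 5 without carfilzomib replicate 1 and 14 without carfilzomib replicate 2. The interaction at 24 h called 0 members and 0.482% of all genes by edgeR, with 5 members at an unadjusted p under 0.05 and 0 members by DESeq2.

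In the carfilzomib set at 8 h no member was called by edgeR in any of the 5 contrasts, where 23% of all genes were called for the label of carfilzomib against that of DMSO and 0% for the other 4. At an unadjusted p under 0.05 there was 1 member for SHP1705 against DMSO and none for the others, and DESeq2 also called 0. Without replicate 1 of all 4 groups, a choice made after the data were seen, 42 members were lower for SHP1705 against DMSO (49.3% of all genes called), 39 lower for carfilzomib (53.8%) and 18 lower for the combination (18%), and the interaction called 22 higher and 1 lower (56.3%). The shares here are of all genes called in either direction, so the members' counts in 1 direction cannot be read against them. PER3 and HSPA1A go against the labels in replicates 2 and 3 too, so these counts compare libraries by label only. RPS21, as an example, had 597, 449 and 447 CPM under the label of the combination, 537, 457 and 391 under carfilzomib, 440, 381 and 519 under SHP1705, and 438, 562 and 499 under DMSO, and each group overlapped every other.

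The SHP1705 effect at 24 h minus that at 8 h in the MG132 set was tested in 1 fit of all 36 libraries. It called 0 of 78 members and 0.023% of all genes (0.00575% higher and 0.0173% lower), with 1 member and 791 genes at an unadjusted p under 0.05 and 0 members by DESeq2. The members' median difference was 0.15 and 73 were positive, but time and set cannot be told apart. The combination effect of the carfilzomib sets at 24 h minus 8 h called 3 members lower, where 20.4% of all genes were called, 9.72% higher and 10.7% lower: RPL28 at -0.28 ± 0.10 (adjusted p = 0.0456), RPL13 at -0.35 ± 0.10 (0.0159) and RPL39L at -0.88 ± 0.27 (0.0209). RPL28 was not called with the replicate block (0.0555), with no filter on low counts (0.0908) or without any 1 of 9 of the 12 libraries. RPL13 was not called without combination replicate 1 at 8 h (-0.31, 0.0534). RPL39L was not called without combination replicate 1 (-0.65, 0.107) or DMSO replicate 3 (-0.82, 0.0598) at 8 h. The same held without combination replicate 2 (-0.81, 0.0535) or DMSO replicate 1 (-0.69, 0.0875) at 24 h. Leaving out single libraries gave 0 to 4 members, and the 8 h side of this difference rests on the labels that PER3 and HSPA1A contradict.

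Members were also set apart by the run of pyrimidines at the start. After SHP1705 alone in the MG132 set, members with a run of at least 8 bases had a median of -0.19 (47 members, 37 lower) and those with a shorter one -0.15 (15 members, 10 lower). For the combination against DMSO the medians by TMM were 0.13 (27 higher, 1 lower) and 0.09 (8 higher), and for the interaction 0.42 and 0.34. At 24 h they were -0.12 (46 members, 18 lower) and -0.06 (15 members, 1 higher and 3 lower) under carfilzomib, and -0.15 (27 lower) and -0.11 (7 lower) under the combination. The differences between these medians were not tested.

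Most members varied together over the libraries. On log2 CPM centred within each set, Pearson's r with the median member over 36 libraries was 0.959 for RPL19, 0.955 for RPS18 and 0.946 for RPL26, the highest of the 77 members tested in all sets. It was lowest for RPL39L at 0.0581, RPL17 at 0.304 and RPS26 at 0.470. Within the MG132 set RPL39L had -0.592 and RPS26 -0.322, while at 24 h they had 0.708 and 0.925. The members share each library's scaling and depth, so these correlations describe the libraries and carry no test.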

How the data were processed

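Raw counts per gene were deposited by the authors as 3 tables. The submitters' processing notes name hg38 and the tools FastQC, Trimmomatic, featureCounts and HISAT2. Not given in the sources used here: their versions, the annotation release, the strand setting and how multi-mapping reads were treated. Overlapping and near-identical genes are therefore uncertain. Columns were joined to samples by treatment, replicate and table, and 0 columns were left unused. Genes passing filterByExpr were tested with edgeR 4.0.16 (limma 3.58.1, R 4.3.3) by its quasi-likelihood test in 1 fit of 4 groups per table, with TMM factors, a prior count of 0.125 and Benjamini-Hochberg adjustment over all genes tested. All 36 libraries entered 1 fit for the 2 differences between sets. Levels are TMM-scaled CPM. Depth per library is given in the report, and no pair of libraries agreed within sampling noise. The fit was checked on simulated counts. Replicate numbers did not pair libraries in the MG132 set or at 24 h. Correlations of same-numbered deviations lay between -0.256 and 0.195 in the MG132 set and between -0.0909 and 0.142 at 24 h. In the carfilzomib set at 8 h they ran from -0.832 (combination with SHP1705) to 0.423 (combination with DMSO).

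The members and lists were chosen with earlier results of these data known. Named members are a set of 21 symbols, up to 5 highest and 5 lowest called members per contrast whose groups do not overlap, called members that moved against the majority, and the 3 most and 3 least like the median member; up to 3 genes per other list were taken by p. RPL7A, RPS9, RPS18, RPL13A and RPL41 were also named for their levels or start runs, and members with many pseudogene counts for those, after their values were seen. Alternatives were other size factors, no filter, DESeq2 1.42.0, a replicate block, a fit of the compared groups and leaving out each library; 5 more were chosen after seeing the data.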

Additional observations from a re-analysis of the deposited data

Results flagged for a closer look

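In the MG132 set the response to SHP1705 differed with and without MG132 for 72 of 78 members by the interaction test of edgeR, 71 of them more positive with MG132, where 48.9% of all tested genes were called. With library size alone in place of TMM factors 20 members were called, 14 more positive and 6 more negative. That scaling shifts all genes nearly alike, and this count is given without the share of all genes under it.

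Between the carfilzomib sets, 3 of 78 members had a combination effect that was lower at 24 h than at 8 h, against 10.7% of all tested genes. The difference of log2 fold changes was -0.28 for RPL28, -0.35 for RPL13 and -0.88 for RPL39L. RPL28 lost its call with the replicate block, with no filter on low counts and without any 1 of 9 of the 12 libraries. RPL13 lost it without combination replicate 1 at 8 h (-0.31). RPL39L lost it without combination replicate 1 (-0.65) or DMSO replicate 3 (-0.82) at 8 h. It also did so without combination replicate 2 (-0.81) or DMSO replicate 1 (-0.69) at 24 h. RPL39L had 3.17, 2.84 and 3.39 CPM under SHP1705 with carfilzomib and 6.29, 4.62 and 4.27 in DMSO at 24 h. Under the same labels at 8 h it had 7.72, 5.69 and 4.57 CPM and 5.13, 5.88 and 4.73 CPM. Levels of PER3 and HSPA1A contradict several labels of the set at 8 h.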

How the results depend on the processing

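Counts are members called. With library size alone, the combination of the MG132 set turned to 68 lower against DMSO and 41 lower against MG132, and the interaction called 20. The reversed members were, against DMSO, RPL37 (-0.061), RPL4 (-0.080), RPL30 (-0.082), RPL9 (-0.066), RPS19 (-0.11), RPL5 (-0.084), RPL11 (-0.12), RPLP0 (-0.25) and RPS27 (-0.21), and, against MG132, RPL5 (-0.025) and RPL11 (-0.042). For SHP1705 alone in that set the count was 39 with the length trend removed, 17 without the 4 POSTN-bearing libraries, and 42 to 55 without single libraries. For MG132 alone it was 28 with no filter, 11 with DESeq2, 5 in a fit of the compared groups and 0 to 1 without single libraries. At 24 h, SHP1705 alone gave 3 with no filter, 2 with DESeq2, 0 with library size alone, 3 in a fit of the compared groups and 0 to 3 without single libraries. Carfilzomib gave 15 in a fit of the compared groups and 14 to 41 without single libraries, and the combination 21 to 37 against DMSO without single libraries. The combination against carfilzomib gave 10 with no filter, 1 in a fit of the compared groups and 0 to 14 without single libraries, with 1 in the opposite direction without carfilzomib replicate 3; the interaction gave 0 to 1. The combination effect at 24 h minus 8 h gave 5 with library size alone, 5 with the length trend removed and 0 to 4 without single libraries. At 8 h under carfilzomib labels, leaving out replicate 1 of all groups gave 42, 39, 18, 1 and 23 in the order SHP1705, carfilzomib and combination against DMSO, combination against carfilzomib, and interaction, and a fit of the compared groups gave 1 for carfilzomib. Without heat shock genes in the totals the subunit shares were 2.59% small and 2.89% large under SHP1705 with MG132, and 3.01% and 3.49% under the label DMSO in the carfilzomib set at 8 h. The causes were not tested.

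The replicate number as a block, which shares only a number between groups, gave 61 for SHP1705 alone in the MG132 set, 2 for SHP1705 alone at 24 h and 2 for the combination effect at 24 h minus 8 h. In the carfilzomib set at 8 h, same-numbered deviations of the combination and DMSO correlated by 0.423, 0.107 and 0.354. Those of the combination and SHP1705 correlated by -0.832, -0.638 and -0.679, and those of SHP1705 and DMSO by -0.653, -0.587 and -0.540. The block called 0 members there. Of the named genes' values, 1447 kept their side and direction over all alternatives tried, 76 lost and 34 gained the call, and 11 turned. Small changes of weakly counted members are limited by depth. RPL3L and RPL10L failed the filter on low counts in every set. RPL36A had 224 counts of its own against 16810 in its pseudogenes over the MG132 set, so its level is uncertain for that reason too.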
